A study of Homo sapiens with 6 samples.

Results

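The histone cluster genes are the replication-dependent histone genes that lie together in a few clusters of the human genome and carry symbols of the form *HIST1H2BK*, in which the first number names the cluster and the last letters name the family and the copy. The count table of the *HSALNG0134318* knockdown held 26485 gene names, and 73 of these were histone cluster genes by symbol. The 62 of them with at least 1 count in any library are described here, and the other 11 were at 0 in all 6 libraries. *HSALNG0134318* is a long noncoding RNA in 22q11.2, and the experiment asked how gene expression changes in HEK293 cells, a line derived from human embryonic kidney, when it is knocked down. The knockdown group was 3 HEK293 cultures transiently transfected, with Lipofectamine RNAiMAX, with a Smart Silencer, a reagent that combines siRNAs with antisense oligonucleotides against the same transcript. The control group was 3 HEK293 cultures that the labels call NC in the description and WT in the genotype, and what they were transfected with was not named in the sources used here. The labels number the knockdown cultures 1, 4 and 5 (replicates 1, 2 and 3, in that order), while the controls carry the numbers 10, 11 and 1. The methods describe the knockdown experiments as biologically independent in each group, and the p-values measure the spread between these cultures.

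The core histones H2A, H2B, H3 and H4 form the protein spool of the nucleosome, and the linker histone H1 binds the DNA between spools. Their clustered genes are transcribed mainly in S phase, when newly made DNA needs new histones. Their messenger RNAs usually lack introns and a poly(A) tail and end just after a short stem-loop that is bound by SLBP, although some of these genes can also give longer, polyadenylated transcripts. The labels describe the RNA as polyA RNA and the libraries as stranded mRNA libraries, so transcripts that end at the stem-loop were measured only as far as they entered such libraries.

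The 3′ stem-loop was searched in the hg38 reference sequence, in the 150 bases after each stop codon. All 70 histone rows with a coding sequence held one, 23 to 68 bases after the stop codon (median 36), against 73 of all 20046 protein-coding genes (0.364%), and the other 3 genes were *H2AX*, *H3-7* and *BTBD10*. A pair of members, *HIST2H2BA* and *HIST2H2BC*, are annotated without a coding sequence and had no stem-loop call. The 70 stem-loops were of 10 kinds. The most frequent kind, of 40 genes, is shown for *HIST3H2A* and *HIST2H2BE*, and the others are shown because their members recur in the results. Each is given 5′ to 3′ on the gene's strand, with the 4 bases of the loop in capitals.
HIST3H2A, chr1:228457369-228457384, minus strand: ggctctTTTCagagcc
HIST2H2BE, chr1:149886188-149886203, minus strand: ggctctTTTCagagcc
HIST1H2BD, chr6:26158587-26158602, plus strand: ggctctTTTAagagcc
HIST1H2BK, chr6:27146366-27146381, minus strand: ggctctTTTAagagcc
HIST2H2AC, chr1:149887391-149887406, plus strand: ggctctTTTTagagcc
HIST1H2AK, chr6:27837885-27837900, minus strand: ggttctTTTCagagcc
*HIST3H2A* and *HIST2H2BE*, which moved in opposite directions in the results, had the same 16 bases, as did *HIST1H2BD* and *HIST1H2BK*. The kinds of *HIST2H2AC* and *HIST1H2AK* each occurred in 1 row alone.

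Many H2A and H2B genes lie head to head and share the short stretch between their start sites. Among rows next to each other by start position, 12 such pairs lay at most 500 bases apart, with 169 to 288 bases between the annotated genes. In 3 of them both genes were tested. This search missed *HIST1H2BC*, whose annotated span covers the starts of other histone genes. It ends at chr6:26123926 on the minus strand, head to head with *HIST1H2AC*, which starts at chr6:26124145 on the plus strand. Both of these genes were tested as well. RefSeq promoters (GRCh38.p14), from 250 bases before to 50 bases after the start, were matched for 65 of the 73 rows, and where RefSeq gives several starts the nearest before the coding sequence was used. The TATA motif TATAAA, read on the gene's strand, was in 58.5% of them, against 7.33% of all 35116 RefSeq promoter windows. The CCAAT box, read on both strands, was in 84.6% against 34.6%, and the octamer ATTTGCAT, on both strands, was in 38.5% against 1.77%. The octamer was in 11 of 16 H2A and 14 of 18 H2B promoters, and in 0 of 12 H3, 0 of 6 H1 and 0 of 13 H4 promoters. The CCAAT box was in 3 of the 13 H4 promoters and in every matched promoter of the other families. The 120 bases before the start are shown for the genes that passed the test and for the head-to-head partners on chromosome 1, with these 3 motifs in capitals (a reverse CCAAT box reads ATTGG).
HIST3H2A, chr1:228457874-228457993, minus strand: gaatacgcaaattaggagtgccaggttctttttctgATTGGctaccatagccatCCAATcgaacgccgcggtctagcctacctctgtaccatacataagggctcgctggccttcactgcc
HIST3H2BB, chr1:228457983-228458102, plus strand: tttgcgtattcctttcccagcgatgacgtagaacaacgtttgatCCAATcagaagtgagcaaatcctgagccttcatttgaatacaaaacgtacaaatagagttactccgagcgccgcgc
HIST2H2BE, chr1:149886683-149886802, minus strand: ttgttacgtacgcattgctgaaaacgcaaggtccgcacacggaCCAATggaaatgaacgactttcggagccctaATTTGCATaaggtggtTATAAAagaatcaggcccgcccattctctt
HIST2H2AC, chr1:149886798-149886917, plus strand: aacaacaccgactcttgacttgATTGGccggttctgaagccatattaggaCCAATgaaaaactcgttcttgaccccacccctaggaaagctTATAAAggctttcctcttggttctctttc
HIST1H2BD, chr6:26158002-26158121, plus strand: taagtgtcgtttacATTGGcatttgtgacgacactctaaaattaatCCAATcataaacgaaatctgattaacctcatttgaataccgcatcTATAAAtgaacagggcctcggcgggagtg
The 3 genes that passed the test differed in these motifs. *HIST2H2BE* held all 3, *HIST1H2BD* held TATAAA and CCAAT, and *HIST3H2A* held CCAAT alone. These matches describe letters in the window and no binding was measured.

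Library totals were 13900965 to 15583535 counts in the knockdown group and 14732648 to 16869948 in the control group. Over all genes, 14877 were tested with edgeR, of which 804 were higher (5.40%) and 690 lower (4.64%) in knockdown at a Benjamini-Hochberg adjusted p under 0.05. Control replicate 2 stood apart, at root-mean-square log2 distances of 0.445 and 0.486 from the other controls, while the knockdown libraries lay 0.271 to 0.315 from each other. *HSALNG0134318* is not a row of the table, so its knockdown was not measured here. Of 10 HEK293 markers, 9 had at least 10 counts, and blood, endothelium, hepatocyte and podocyte markers had none with 10. Among fibroblast, muscle and proximal tubule markers, 5 of 8 had at least 10 counts. The summed proximal tubule markers were 577 to 651 counts in knockdown and 778 to 1149 in control libraries. Most of this sum was *LRP2*, with 548 to 623 counts in knockdown and 745 to 1125 in control libraries. *CUBN* overlapped, with 22 to 29 and 18 to 33, and *SLC34A1* had at most 2. The part of these markers in the results was not tested.

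Histone cluster transcripts were a small part of every library. The 62 members together summed to 1935, 1618 and 1521 counts in the knockdown libraries and to 1506, 2081 and 1527 in the control libraries, in replicate order here and throughout. These are 109 to 124 CPM (counts scaled to the library total) in knockdown and 102 to 123 in control libraries, and the ranges overlap. After normalization to the effective library size, the sums were 1729 ± 121 in knockdown and 1655 ± 176 in control (SD, n = 3), a log2 ratio of 0.063. This ratio was 0.0046 without knockdown replicate 1, 0.012 and 0.027 without control replicates 1 and 3, and 0.10 and 0.15 without knockdown replicate 3 and control replicate 2. H2B genes held 50.7% of all member counts, H2A genes 27.4%, H1 genes 11.1%, H3 genes 7.43% and H4 genes 3.43%. By the cluster named in the symbol, *HIST1* on chromosome 6 held 76.2% with 51 members and *HIST3* on chromosome 1 held 14.97% with 3. *HIST2* on chromosome 1 held 8.59% with 7, and *HIST4* on chromosome 12 has *HIST4H4* alone with 23 counts. *HIST2H2BA* counts as *HIST2* by symbol only. It lies at chr1:121107171-121117294, far from the other *HIST2* genes, which start at chr1:149782689 or later. In bulk RNA, fewer cells in S phase and less histone RNA per cell cannot be told apart.

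Counts were concentrated in few genes. Of the 62 members, 20 passed the filter on low counts, with totals of 67 to 3435 over the 6 libraries. The 42 others had 1 to 60 counts in all (median 14) and at most 16 in any library, and 13 members had at most 5. At this depth 3 counts correspond to 0.178 CPM in the largest and 0.216 CPM in the smallest library, which is the upper limit that a count of 0 allows. Such limits cover counting error only. Per kilobase of annotated exon, *HIST1H2BK* had the highest level of the tested members, at 76.1 CPM per kb, followed by *HIST1H1C* with 15.6, *HIST3H2A* with 8.87 and *HIST1H2AI* with 8.45. *HIST1H2BC* had the lowest, 0.389 CPM per kb. These levels use GENCODE release 44 exon lengths, and a longer annotated transcript lowers the value. For *HIST1H2BK* that length is 495 bases, while RefSeq places its end 8073 bases past the stem-loop along the genome. Its level with the longer end was not computed, so its rank per kilobase is uncertain.

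The tested members differed from the others in their annotated ends. A gene was called extended where GENCODE or RefSeq places an end more than 100 bases past the stem-loop. Of the 18 tested members with a stem-loop 12 were extended, against 4 of the 42 untested ones. The 16 extended members held 71.5% of all member counts and the 44 others 25.7%. All 3 genes that passed the test were extended. The farthest annotated end lay 1729 bases past the stem-loop in *HIST2H2BE*, 12747 in *HIST1H2BD* and 22592 in *HIST3H2A*. These are distances along the genome, introns included. Annotated exons cover 861 bases in *HIST1H2BD* and 1850 in *HIST3H2A*. For *HIST3H2A* the far end is in GENCODE alone, and RefSeq ends it 5 bases past the stem-loop. Other members, such as *HIST1H2AC* and *HIST1H4H*, were also extended in GENCODE alone, and *HIST1H2BK* in RefSeq alone. Of the 5 members with the most counts, *HIST1H1C* and *HIST1H2AI* were not extended. Which ends the authors' annotation holds was not given in the sources used here, and the table does not separate short from extended transcripts.

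Near-identical copies limit what a count can be assigned to. Coding sequences within a family were alike, with a median identity between pairs of 85.6% in H2A, 89.8% in H2B, 85.3% in H3 and 83.8% in H4. For every row, the share of 100-base stretches of its annotated transcripts that occur once in hg38 was counted. Stretches across a splice junction generally do not occur in hg38 and were not counted as unique. The share of spliced transcripts is lower for that reason too. No member had a share of 0%, 39 members were at 100%, and 6 were under 50%. Of the 11 rows at 0 counts, 6 had a share of 0%: the *HIST2H4A* and *HIST2H4B*, *HIST2H3A* and *HIST2H3C*, and *HIST2H2AA3* and *HIST2H2AA4* copies. Another 4 rows at 0 counts, *HIST1H2BA*, *HIST1H2APS1*, *HIST1H4G* and *HIST1H3G*, had a share of 100%, and *HIST1H2AJ* had 38.2%. The handling of reads with several matches was not given in the sources used here. The genes that passed the test had shares of 88.9% (*HIST3H2A*), 87.1% (*HIST1H2BD*) and 97.4% (*HIST2H2BE*). *HIST3H2A* and *HIST1H2BD* have annotated introns, so the rest need not be copied sequence. *HIST1H2BK*, the member with the most counts, had 77.5%, and 42.8% for stretches of 50 bases, so its value shares this limit. The values of *HIST1H2AI* (41.2%), *HIST2H2BF* (38.9%), *HIST2H2BC* (22.5%) and *HIST2H2BA* (46.2%) are uncertain.

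**Figure D1:**
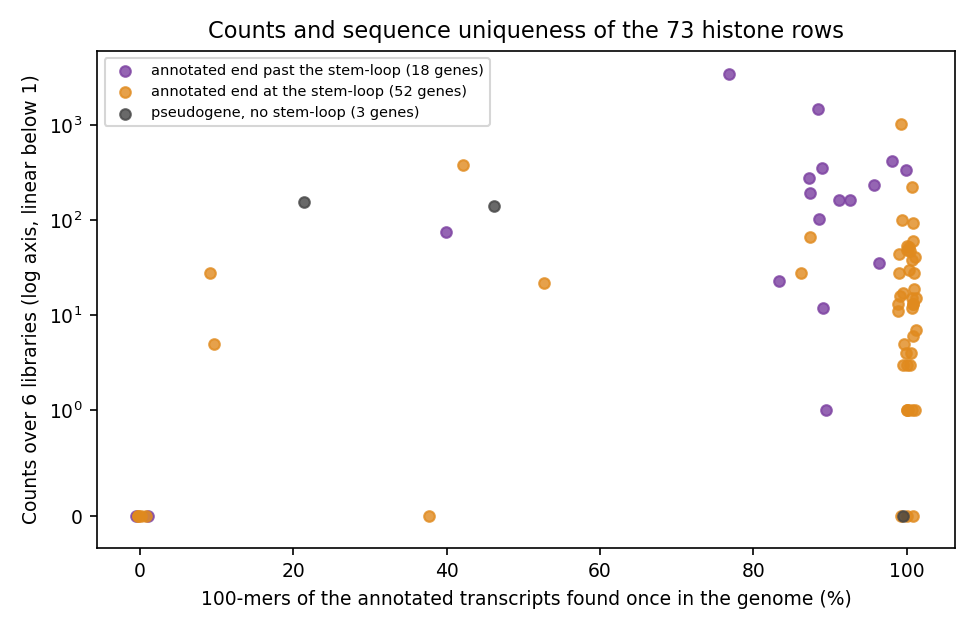
Counts summed over the 6 libraries (vertical axis, logarithmic above 1) against the share of each gene's 100-base stretches found once in the genome (horizontal axis, percent, points spread slightly sideways), 1 point for each of the 73 histone rows, coloured by the annotated transcript end. All rows with a share of 0% sit at 0 counts, and most of the points above 100 counts are genes with an end annotated past the stem-loop.

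In the knockdown, 3 of the 20 tested members passed the test, which is 15% against 10.04% of all genes tested. *HIST3H2A* and *HIST1H2BD* were higher and *HIST2H2BE* was lower. The median log2 fold change of the 20 was 0.16, against -0.02 over all genes, with 13 above 0 and 7 below. In 4 of the 20 the groups did not overlap, against 32.2% of all genes tested, and these were the 3 genes above and *HIST1H2AK*. With no filter on low counts all 62 members entered, and the same 3 passed. The histone cluster genes thus did not move in one direction, and the 3 that passed lie in 3 different clusters.

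**Figure D2:**
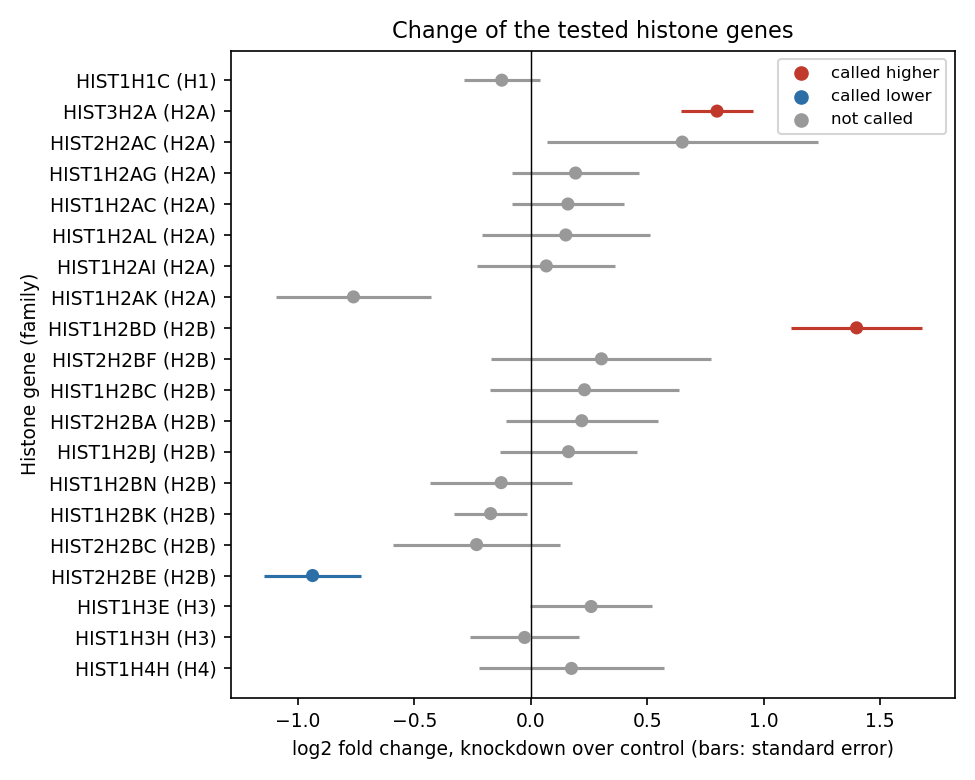
log2 fold change of knockdown over control (horizontal axis) with its standard error (bars) for the 20 tested histone genes, grouped by family on the vertical axis. *HIST3H2A* at 0.80 and *HIST1H2BD* at 1.40 lie to the right, *HIST2H2BE* at -0.94 lies to the left, and the 17 grey points lie between -0.76 and 0.65.

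The linker histone genes had 6 members, of which *HIST1H1C*, encoding histone H1.2, was the only one tested. Its normalized counts were 166.8, 140.8 and 183.6 in knockdown and 165.3, 167.8 and 202.7 in control libraries. The groups overlapped throughout, and the log2 fold change was -0.12 (SE 0.16, edgeR adjusted p = 0.67). *HIST1H1B*, with 23 counts in knockdown and 29 in control, and *HIST1H1E*, with 19 in each, stayed under the filter. Summed over the family, normalized counts were 180.0 ± 19.9 in knockdown and 196.8 ± 13.9 in control (SD, n = 3).

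H2A genes encode the partner of H2B in the histone dimer, and 7 of the 14 H2A members were tested. *HIST3H2A* (chr1:228434777-228457873, minus strand, protein coding) had normalized counts of 326.8, 324.4 and 289.8 in knockdown and 161.2, 219.6 and 158.4 in control libraries. Every knockdown library lay above every control library, with control replicate 2 nearest to them. The log2 fold change was 0.80 (SE 0.16, edgeR adjusted p = 0.0092), a 1.74-fold rise from a mean of 179.7 ± 34.5 to 313.7 ± 20.7 (SD, n = 3). The call was lost narrowly without knockdown replicate 1 or 2 (adjusted p = 0.050 for each), with a log2 fold change of 0.72 to 0.97 over all alternatives.

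The head-to-head partner of *HIST3H2A*, the H2B gene *HIST3H2BB*, starts 229 bases away. It had 9, 3 and 2 counts in knockdown and 7, 8 and 6 in control libraries and was not tested. A rise like that of *HIST3H2A* was not seen in its counts, which are few, and the difference between both genes was not tested.

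Of the other H2A genes, *HIST2H2AC* had the largest positive value that did not pass. Its normalized counts were 15.4, 13.6 and 11.8 in knockdown and 5.10, 17.9 and 2.06 in control libraries. Control replicate 2 was the highest of all 6 while the other controls were the lowest. The log2 fold change was 0.65 (SE 0.58, edgeR adjusted p = 0.51), and without control replicate 2 it was 1.89 (adjusted p = 0.045).

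*HIST1H2AK* had normalized counts of 10.6, 11.5 and 11.8 in knockdown and 17.4, 18.7 and 21.6 in control libraries. All knockdown values lay below all control values, yet the adjusted p was 0.17 at a log2 fold change of -0.76 (SE 0.33). *HIST1H2AI*, *HIST1H2AC*, *HIST1H2AG* and *HIST1H2AL* had log2 fold changes of 0.07, 0.16, 0.19 and 0.15 with overlapping groups, of which *HIST1H2AI* turned negative without control replicate 2 or knockdown replicate 2.

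H2A was the family whose summed normalized counts did not overlap between groups, at 567.7, 546.6 and 499.2 in knockdown and 391.8, 411.4 and 375.5 in control libraries. This difference came from *HIST3H2A*. Without it, the H2A sum was 224.2 ± 15.9 in knockdown and 213.2 ± 19.7 in control (SD, n = 3), and the groups overlapped.

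**Figure D3:**
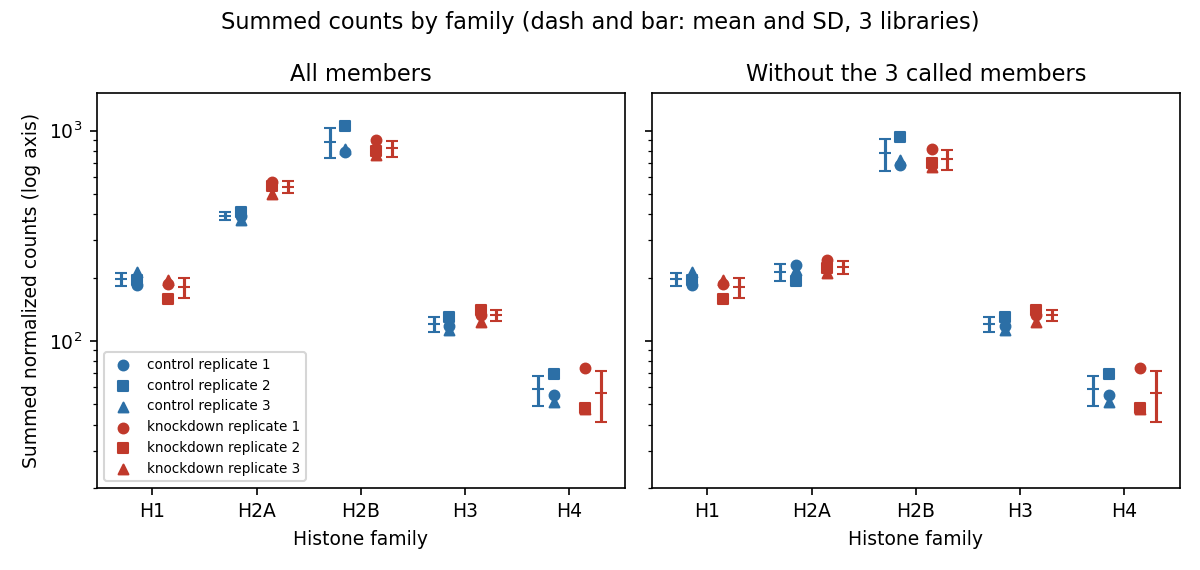
Summed normalized counts (vertical axis, logarithmic) of each histone family (horizontal axis) in every library, with the mean and SD of 3 libraries beside the points, for all members (left) and without *HIST3H2A*, *HIST1H2BD* and *HIST2H2BE* (right). On the left the H2A sums of the knockdown libraries (499.2 to 567.7) lie above those of the controls (375.5 to 411.4), and on the right the groups overlap in every family.

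H2B genes had 19 members and 9 of them were tested, with 1 higher and 1 lower. *HIST1H2BD* (chr6:26158122-26171349, plus strand, protein coding) had normalized counts of 44.3, 50.1 and 46.2 in knockdown and 21.4, 13.4 and 18.5 in control libraries. Every knockdown library was more than 2-fold above every control library. The log2 fold change of 1.40 (SE 0.28, edgeR adjusted p = 0.010) was the largest of all tested members, a 2.64-fold rise from 17.8 ± 4.07 to 46.9 ± 2.93 (SD, n = 3). The call was lost without knockdown replicate 2 (adjusted p = 0.056), with a log2 fold change of 1.22 to 1.56 over all alternatives.

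*HIST2H2BE* (chr1:149884459-149886682, minus strand, protein coding) had normalized counts of 42.4, 48.0 and 49.4 in knockdown and 83.7, 104.4 and 79.2 in control libraries. Every knockdown library lay below every control library, with control replicate 2 the highest. It fell by 0.94 on the log2 scale (SE 0.21, edgeR adjusted p = 0.017), from 89.1 ± 13.5 to 46.6 ± 3.69 (SD, n = 3). Leaving out any of the 3 knockdown libraries raised the adjusted p past the threshold, to 0.080 at most, with a log2 fold change of -1.01 to -0.81 over all alternatives. Its head-to-head partner is *HIST2H2AC*, 235 bases away, whose value was positive and did not pass, and the difference between both genes was not tested.

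*HIST1H2BK* was the most abundant member, with 3435 counts, and its level decides much of any histone sum. Its normalized counts were 592.8, 495.5 and 512.1 in knockdown and 491.8, 754.2 and 556.6 in control libraries. Control replicate 2 was the highest and control replicate 1 the lowest, so the knockdown values lay within the control range. The log2 fold change was -0.17 (SE 0.16, edgeR adjusted p = 0.52), and it was 0.03 without control replicate 2. Without *HIST1H2BK*, the sum of the other 61 members was 1272, 1192 and 1121 in knockdown and 1045, 1103 and 1014 in control libraries. These groups did not overlap, at a log2 ratio of 0.18, which is a description with no test. The means were 1195 in knockdown and 1054 in control. *HIST3H2A* is among these 61 and alone had means of 313.7 and 179.7. The sum without *HIST1H2BK* and the 3 genes that passed was not computed, so this does not show that the 61 rose together. The 59 members without *HIST3H2A*, *HIST1H2BD* and *HIST2H2BE*, which include *HIST1H2BK*, overlapped.

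The 6 other tested H2B genes had log2 fold changes between -0.23 (*HIST2H2BC*) and 0.30 (*HIST2H2BF*), and all had overlapping groups. *HIST1H2BJ* ranged from 33.3 to 69.4 normalized counts in knockdown and from 36.6 to 50.4 in control libraries. *HIST1H2BG*, with 60 counts the most abundant untested member, had 34 counts in knockdown and 26 in control libraries.

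H3 genes, whose product carries many of the best-known histone tail modifications, had 11 members, of which 2 were tested. *HIST1H3H* had a log2 fold change of -0.03 (SE 0.24, edgeR adjusted p = 0.96) and *HIST1H3E* of 0.26 (SE 0.26, adjusted p = 0.57), both with overlapping groups. *HIST1H3D*, under the filter, had 16, 9 and 9 counts in knockdown and 3, 3 and 8 in control libraries. Its knockdown counts lay above its control counts by as little as 1 count.

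H4 genes had 12 members and 1 was tested. *HIST1H4H* had normalized counts of 41.5, 17.7 and 25.8 in knockdown and 30.6, 31.2 and 13.4 in control libraries, and the spread within each group was larger than the difference between them. Its log2 fold change was 0.17 (SE 0.40, edgeR adjusted p = 0.67), and it turned negative without knockdown replicate 1 or control replicate 3. *HIST4H4*, the only gene of the *HIST4* cluster, had 15 counts in knockdown and 8 in control libraries.

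**Figure D4:**
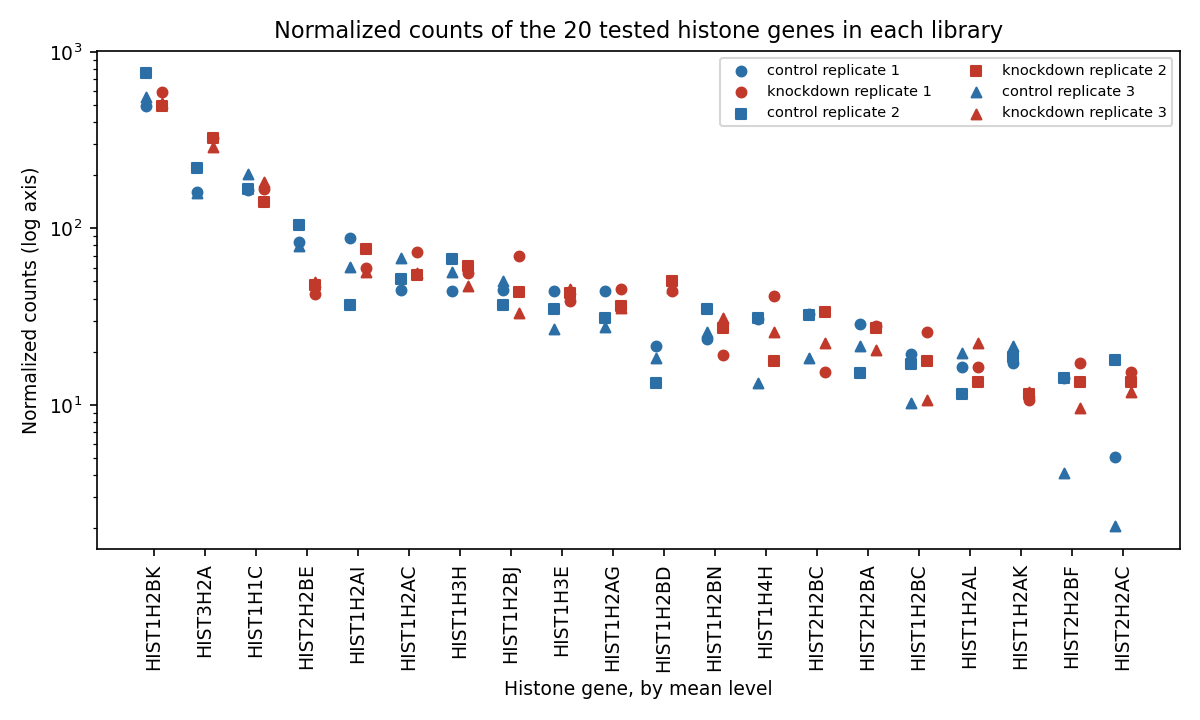
Normalized counts (vertical axis, logarithmic) of each of the 20 tested histone genes (horizontal axis, ordered by mean level) in the 3 control libraries (blue) and 3 knockdown libraries (red), with 1 symbol shape for each replicate number. The red and blue points separate in *HIST3H2A*, *HIST2H2BE*, *HIST1H2BD* and *HIST1H2AK* and overlap in the other 16 genes.

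In the *HIST3* and *HIST2* clusters the difference between the group means rested on 1 gene each. The *HIST3* sum was 321.0 ± 23 normalized counts in knockdown and 187.9 ± 33.6 in control (SD, n = 3), and without *HIST3H2A* the other 2 genes of the cluster summed to 7.36 ± 4.52 and 8.19 ± 1.02. The *HIST2* sum was 126.4 ± 9.45 and 163.0 ± 29.4, and without *HIST2H2BE* it was 79.8 ± 10.2 and 73.9 ± 18.6. The *HIST1* sum was 1276 ± 103 and 1302 ± 122, and without *HIST1H2BD*, a small part of it, 1229 ± 105 and 1284 ± 126. Over all families, the 59 members other than these 3 summed to 1321 ± 113 in knockdown and 1368 ± 133 in control (SD, n = 3). At this depth the standard errors of the tested members were 0.16 to 0.58 on the log2 scale, so small changes of the low members were not detectable.

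Genes related to the histone cluster genes were examined in 5 lists: 3′ processing and decay, transcription, variant histones, histone chaperones and S phase genes. Of their genes, 127 were tested. Of these, 6 were higher and 7 lower (10.2%, against 10.04% of all genes), with a median log2 fold change of -0.05. The calls of *NELFB*, *MBNL1*, *H1F0*, *H2AFY2*, *NASP*, *PCNA*, *RRM2*, *GINS2* and *UNG* were lost when 1 library or another was left out.

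Of 38 genes of 3′ end processing and decay, 1 was higher and 1 lower (5.26%, against 10.04% of all genes). Their median log2 fold change was -0.05. *SLBP*, the stem-loop binding protein, had normalized counts of 1222, 1368 and 1344 in knockdown and 1561, 2133 and 1307 in control libraries. The groups overlapped, and the log2 fold change was -0.35 (SE 0.15, edgeR adjusted p = 0.17). *LSM11*, of the U7 particle that guides the cleavage, was at 421.2, 467.3 and 588.3 in knockdown and 708.1, 689.9 and 597.8 in control libraries. Its groups did not overlap, at a log2 fold change of -0.44 (adjusted p = 0.069). *ERI1*, an exonuclease that trims the stem-loop, had -0.05 (adjusted p = 0.82). The gene that rose was *NELFB*, of the negative elongation factor, by 0.58 (adjusted p = 0.016), and the one that fell was *MBNL1*, an RNA-binding splicing regulator, with -0.65 (adjusted p = 0.012).

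Of 17 genes of transcription at the histone locus body, the nuclear structure at the histone clusters, 2 were lower and none higher. That is 11.8%, against 10.04% of all genes, and the median was -0.08. *NPAT*, the coactivator that turns on the clusters at S phase entry, had a log2 fold change of -0.23 (SE 0.12, edgeR adjusted p = 0.24). *CASP8AP2*, another component of the body, had -0.07 (adjusted p = 0.79). The genes that fell were *CCNE2*, a cyclin of the kinase that activates NPAT, and *CDKN1A*, an inhibitor of such kinases. *CCNE2* had normalized counts of 371.1, 411.0 and 439.1 in knockdown and 670.4, 645.3 and 635.8 in control libraries. The log2 fold change was -0.68 (SE 0.11, adjusted p = 0.0035), with no overlap. *CDKN1A* had 2157, 1548 and 1725 in knockdown and 3724, 4362 and 3057 in control libraries, with a log2 fold change of -1.04 (SE 0.15, adjusted p = 0.0015). The products of these genes are known to act in opposite ways on the same kinase.

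The list of replication-independent variant histones, which are made outside S phase too, had 10 tested genes of 12. Of these, 1 was higher and 2 lower (30%, against 10.04% of all genes), with a median of -0.19. *H2AFX* (*H2AX*) is in this list although its gene held the 3′ stem-loop. *H3F3B*, encoding H3.3, had normalized counts of 7755, 7997 and 7840 in knockdown and 10880, 11520 and 10640 in control libraries. The log2 fold change was -0.49 (SE 0.08, edgeR adjusted p = 0.0048). *H1F0*, encoding the linker variant H1.0, fell by 0.35 on the log2 scale (adjusted p = 0.032), and *H2AFY2*, encoding a macroH2A, rose by 0.49 (adjusted p = 0.024). The untested genes were *H3F3A*, which encodes the same protein as *H3F3B* and was listed at 0 in every library, and *H3F3C*.

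Control replicate 2 stood apart in 3 other variant genes. *H1FX* was at 3832 normalized counts there against 1291 and 1054 in the other controls, *H2AFX* at 6846 against 3600 and 3578, and *H2AFZ* at 6374 against 3047 and 3356. The knockdown values were 1244 to 1504 for *H1FX*, 3884 to 4274 for *H2AFX* and 2346 to 2764 for *H2AFZ*. Their log2 fold changes of -0.57, -0.19 and -0.75 did not pass (edgeR adjusted p = 0.49, 0.66 and 0.11), and those of *H1FX* and *H2AFX* turned positive without that library (0.25 and 0.19). *H2AFV* had -0.20 (adjusted p = 0.19), *H2AFY* 0.08 (0.54), *H2AFJ* 0.18 (0.50) and *CENPA*, the centromeric H3 variant, 0.13 (0.69).

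Of 24 histone chaperones, 2 were higher and none lower (8.33%, against 10.04% of all genes), with a median of 0.12. *NASP*, which binds free H3 and H4, had normalized counts of 6648, 7076 and 6956 in knockdown and 4411, 3526 and 5308 in control libraries, with a log2 fold change of 0.64 (SE 0.13, edgeR adjusted p = 0.011). *CABIN1*, of the HIRA complex that deposits H3.3, rose by 0.49 (adjusted p = 0.0043). Of 44 S phase genes, some of which are also in the other lists, 3 were higher and 3 lower (13.6%), with a median of -0.04. *NASP*, *GINS2* and *UNG* were higher, and *CCNE2*, *PCNA* and *RRM2* were lower. *PCNA*, the sliding clamp of DNA polymerase, changed by -0.35 on the log2 scale (adjusted p = 0.027) and *RRM2*, of ribonucleotide reductase, -0.32 (adjusted p = 0.030), while *GINS2*, of the replicative helicase, had 0.36 (adjusted p = 0.034) and *UNG*, a DNA repair glycosylase, 0.32 (adjusted p = 0.035). The S phase list therefore had no single direction, as was the case for the histone cluster genes themselves.

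**Figure D5:**
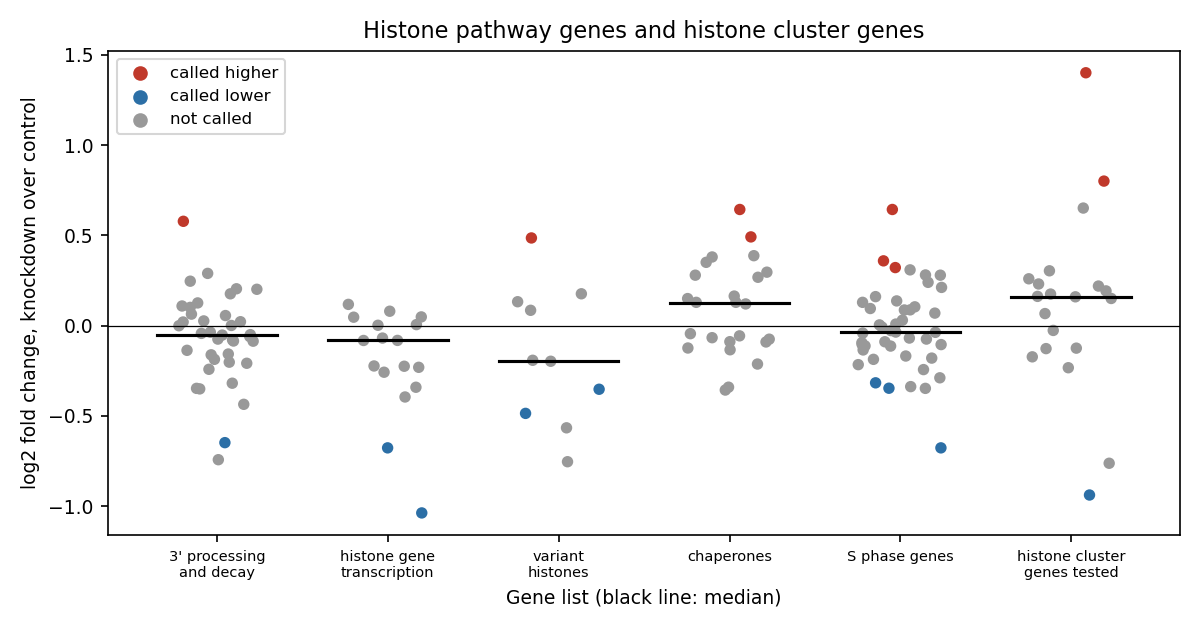
log2 fold change of knockdown over control (vertical axis) of every tested gene of the 5 lists and of the 20 tested histone cluster genes (horizontal axis), with the median of each as a black line. The medians lie between -0.19 (variant histones) and 0.16 (histone cluster genes), and red and blue points, which passed the test, occur on both sides of 0.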

How the data were processed

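The authors deposited whole-number read counts per gene for the 6 libraries. Submitters' processing notes name FastQC 0.11.9, Trim Galore 0.6.6, STAR 2.7.9a, featureCounts 2.0.1 and hg38, and the methods add SortMeRNA to remove ribosomal RNA reads. The gene annotation, strand setting and handling of multi-mapping reads were not given in the sources used here. Of the tested members, 3 overlap a gene on the other strand.

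Genes were filtered with filterByExpr, normalized with TMM and tested over all genes by the robust quasi-likelihood method of edgeR 4.0.16, run in R 4.3.3, with Benjamini-Hochberg adjustment and a threshold of 0.05. For normalized counts, each count was scaled by the mean effective library size over that of its library. Alternatives were DESeq2 1.42.0 (size factors and Wald test), limma-voom (limma 3.58.1), library size alone, TMM without histone rows, other filters, a GC and length correction (loess, span 0.3, known for 97.4% of genes tested), a replicate block, and each library left out. Among 14717 genes of a data set made with 200 changed genes (log2 fold 1.5), edgeR recovered 195 with 22 false calls. The share of false calls among all calls was thus above the 0.05 that the threshold aims at. Genes with low mean counts were not among those changed, and the change was larger than that of any called histone gene. Recovery of smaller changes or of low genes was not tested. Positions and lengths come from GENCODE release 44. Sequence searches used Python 3.11.15.

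Named genes were the called members, the 10 most abundant, the most abundant of each family and cluster, the 3 largest uncalled changes in each direction, SLBP, NPAT, CASP8AP2, LSM11, ERI1, CCNE2, tested variant histones and up to 6 called genes per other list. Other members were named after their values were seen. The members and lists were chosen with earlier results of these data known.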

Additional observations from a re-analysis of the deposited data

How the results depend on the processing

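Over 15 alternatives, the 3 called histone genes kept their direction. *HIST3H2A* passed in 13, *HIST1H2BD* in 14 and *HIST2H2BE* in 12, and each loss came from leaving out a knockdown library. Leaving out 1 library, 0 to 1 members were lower and 0 to 3 higher. Over all genes these fits gave 233 to 1238 lower and 289 to 1274 higher genes, at most 294 and 375 without a knockdown library or control replicate 1 and 1238 and 1274 without control replicate 2, and over the pathway lists 3 to 19 lower and 1 to 15 higher. Leave-one-out medians of the tested members ranged from 0.044 to 0.26, and log2 ratios of the summed counts of all 62 members from 0.0046 to 0.15. The GC and length correction gave 1518 lower and 1373 higher genes (lists 19 and 11), and the DESeq2 Wald test 12 lower in the lists. The cause was not tested.

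Among the pathway genes, *CCNE2*, *CDKN1A*, *H3F3B* and *CABIN1* passed under all 15 alternatives. *GINS2*, *UNG*, *PCNA*, *RRM2*, *H1F0* and *H2AFY2* lost their calls without any 1 knockdown library or control replicate 1 (adjusted p up to 0.17). *NASP* lost it without knockdown replicate 2 or control replicate 1, *MBNL1* without knockdown replicate 1 or control replicate 1, and *NELFB* without knockdown replicate 1 or 3 or control replicate 1. *NPAT* and *H2AFV* passed without control replicate 2, *SLBP* without control replicate 3, *H2AFZ* without control replicate 1 or 2, and *LSM11* without control replicate 2 or 3.

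Of 41 named genes, 12 turned in sign under some alternative, none of them called. Leaving out 1 library, their log2 fold changes ranged from -0.30 to 0.026 for *HIST1H2BK*, -0.21 to 0.41 for *HIST1H2AI*, -0.17 to 0.13 for *HIST1H3H*, -0.19 to 0.37 for *HIST1H2BJ*, -0.21 to 0.42 for *HIST1H4H*, -0.56 to 0.0065 for *HIST2H2BC*, -0.063 to 0.56 for *HIST2H2BF*, -0.22 to 0.087 for *CASP8AP2*, -0.15 to 0.021 for *ERI1*, -0.87 to 0.25 for *H1FX*, -0.35 to 0.19 for *H2AFX* and -0.030 to 0.37 for *CENPA*. With the GC and length correction *HIST1H3H* was at 0.011 and *CASP8AP2* at 0.0054.

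Same-numbered knockdown and control libraries did not deviate together (r = -0.19, -0.10 and -0.04 across genes). Knockdown replicate 1 and control replicate 3, which both carry culture number 1 in the labels, had r = -0.007. Deviations from a mean of 3 libraries depend on each other, so these values cannot show whether libraries were handled together. With the replicate block, 619 genes were lower and 714 higher against 690 and 804 without it, the same 3 histone genes were called, and *GINS2*, *UNG*, *PCNA*, *RRM2* and *H1F0* lost their calls. No replicate correlated best with its own number. With 3 libraries a group and 10188 histone counts in all, the 42 members under the filter cannot show a moderate change.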
